A study of Mus musculus with 17 samples.

Results

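Of 9 transcription factors known to act on the promoter and enhancers of Afp, the alpha-fetoprotein gene, 6 had a probe on the arrays: Hnf4a, Foxa3, Cebpa, Nr5a2, Zhx2 and Zbtb20. The 9 factors were chosen with earlier results of these data known, and their probes were found by gene symbol. The 6 were read by 8 of the 20794 probes, among 9030 named genes in all. No probe carried the symbol of Foxa1, Foxa2 or Trp53, which were not analysed here. The series (labelled AFP1 kO) compared liver RNA of mutant mice with a pool of wild-type liver RNA on 2-colour cDNA arrays. Adult liver came from 6 mutant males, 17 weeks old, on 11 arrays, and was set against a pool of 6 wild-type males. RNA of 5 of them was hybridised in both dyes, and that of adult 5 in Cy5 only. From embryos there were 6 arrays, 1 for each of 3 males (embryos 1 to 3) and 3 females (embryos 4 to 6), all with the mutant in Cy5, and the pool named 4 wild-type animals. Their stage is labelled as day 7.5, which was not checked, and the tissue as fetal liver. Every adult was male. The labels give neither the strain nor the construction of the mutant allele. No wild-type animal was hybridised on its own, so all tests leave out the spread among wild-type animals.

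Afp is transcribed at a high level in fetal hepatocytes and is silenced after birth. Hnf4a, a nuclear receptor, Foxa1, Foxa2 and Foxa3, forkhead proteins that open chromatin, Cebpa, a leucine zipper protein, and Nr5a2, a nuclear receptor also known as the fetoprotein transcription factor, bind its promoter or upstream enhancers as activators. Zhx2, Zbtb20 and Trp53 act as repressors. Zhx2 was found through a mouse locus that sets the adult level of Afp, and loss of Zbtb20 in the liver lets adult hepatocytes keep transcribing Afp.

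The proximal promoter of Afp is shown because it is the DNA on which several of these factors meet. RefSeq lists 1 Afp start in GRCm38.p6, and the 250 bases before it lie on the plus strand at chr5:90490464-90490713. Capitals mark matches to the motifs searched on both strands.

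Afp promoter: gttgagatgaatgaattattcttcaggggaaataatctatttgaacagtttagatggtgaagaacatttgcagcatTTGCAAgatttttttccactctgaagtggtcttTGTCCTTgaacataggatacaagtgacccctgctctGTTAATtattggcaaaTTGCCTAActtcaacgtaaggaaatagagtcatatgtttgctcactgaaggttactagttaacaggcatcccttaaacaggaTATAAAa

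Counted back from the annotated start, the Nr5a2 motif AAGGNCA stood on the minus strand at bases -141 to -135. Part of an Hnf1 site, GTTAAT, stood at -105 to -100. Motifs of Cebp proteins stood at -174 to -169 (TTGCAA) and at -89 to -82 (TTGCNNAA). The letters of a TATA box, TATAAA, stood at -7 to -2. Whether the annotated start is the one used in liver was not checked, and all these positions depend on it. The Foxa motif TNTTTAC and the Hnf4 motif AAAGTCC had no match in this window. Other spellings of these motifs were not searched, so this does not show that sites of these factors are absent. Among 32851 RefSeq windows of the same length, AAGGNCA was present in 17.5%, GTTAAT in 6.43%, TTGCAA in 5.34%, TTGCNNAA in 9.56%, TATAAA in 12.4%, TNTTTAC in 10.9% and AAAGTCC in 3.58%. Such matches describe letters and are not measured binding sites.

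Values are given as log2 of the ratio between mutant and pool, so 0 means equal signal and values below 0 mean less signal in the mutant. The row naming of the fetal arrays was inferred from the values, Afp among them. The direction of the adult arrays with the mutant in Cy3 is not settled by the labels or the values: they were read as deposited, and adult results are also given with these arrays turned in sign ("turned"). With the rows named in this way Afp, the targeted gene, lay between -8.79 and -8.11 in the 6 embryos, which is a description and no test, since it helped to choose the naming. In 4 of 6 embryos 2 of its 3 spots held one value, and in 3 embryos spots differed by 1 within 0.001, so the size of the ratio may be a bound. In adult males Afp lay at -0.03 ± 0.19 (n = 6), between -0.19 and 0.34, and at -0.12 turned, so the adult ratios do not check the genotype. A ratio in liver RNA cannot tell fewer cells of a type from less RNA per cell. None of the 6 regulators passed an adjusted p of 0.05 (limma, Benjamini-Hochberg over all features) in adults, where 0% of 17039 features passed, or in embryos, where 0.151% of 17242 did. At an unadjusted p under 0.05, 2 of 6 regulators were below 0 in adults, against 4.35% of all features. Turned, 0 of 6 were below 0, against 12.6%, and 2 of 6 (Nr5a2 and Zhx2) above, against 16.4%. In embryos 1 was below 0 and 1 above, against 9.88% and 10.9%. With the number of animals at hand, the 95% intervals of the 6 regulators were 0.42 to 1.04 wide in adults and 0.39 to 1.11 wide in embryos.

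Cebpa, the leucine zipper activator that drives many genes of the mature hepatocyte, gave the lowest mean of the 6 at both ages, also with the Cy3 arrays turned. In the embryos its ratios were -1.52, -0.55 and -0.32 in males 1, 2 and 3 and -0.42, -0.99 and -0.21 in females 4, 5 and 6. All 6 embryos thus lay below 0, with embryos 1 and 5 lowest. The mean was -0.67 ± 0.50 (n = 6), a mutant over pool ratio of 0.63 with a 95% interval of 0.477 to 0.832, and the test did not pass (limma adjusted p = 0.110). Only 0.661% of all features had a mean as low or lower. The SD of Cebpa was wider than that of 90.2% of features in the embryos, where the median SD was 0.249.

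In adults, the animal means of Cebpa were 0.27 in animal 1, -0.27 and -0.25 in animals 2 and 3, -0.86 and -0.75 in animals 4 and 5, and -0.43 in animal 6. Animal 1 stood above 0 and the other 5 below. The mean was -0.38 ± 0.40 (n = 6), a ratio of 0.767 with an interval of 0.598 to 0.985 (limma adjusted p = 0.639). Turned, the mean was -0.21 ± 0.27 (adjusted p = 0.262). As deposited, both arrays of an animal had the same sign in 5 of 5 animals measured in both dyes, with a median gap of 0.29 against 0.605 over all features and animals. Turned, they had the same sign in 0 of 5, with a median gap of 0.55 against 0.413. With the mutant in Cy5 these 5 animals averaged -0.42 and with the mutant in Cy3 -0.20.

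Hnf4a, the nuclear receptor that maintains hepatocyte gene expression, was below 0 in 6 of 6 adults. Its animal means were -0.03 in animal 1 and -0.34, -0.34, -0.33, -0.38 and -0.30 in animals 2 to 6. As means of their arrays (1 array for animal 5), animals 2 to 6 lay close together, and animal 1 stood near 0. The mean was -0.29 ± 0.13 (n = 6), a ratio of 0.819 with an interval of 0.709 to 0.947, which did not pass (limma adjusted p = 0.639). Of all features, 3.23% had an SD of animal means as small or smaller. Single arrays were spread more widely. Animal 6 read -0.80 with the mutant in Cy5 and 0.20 with it in Cy3, and animal 1 read 0.21 and -0.27. Both arrays of Hnf4a had the same sign in 3 of 5 animals as deposited and in 2 of 5 turned. Turned, 5 of 6 adults were below 0, with animal 1 at 0.24 and a mean of -0.20 ± 0.25 (adjusted p = 0.284).

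The 2 probes of Hnf4a differed from each other on the arrays with the mutant in Cy3. As deposited, probe 334 averaged -0.42 ± 0.21 and probe 19031 -0.15 ± 0.11 over the adults, each below 0 in 6 of 6 animal means. On the 5 arrays with the mutant in Cy3, probe 334 read between -0.69 and -0.25. Probe 19031 read -0.17 in animal 1 and 0.32 to 0.64 in the other animals measured in that dye. Turned, the values of probe 334 on these 5 arrays lie above 0, and those of probe 19031 below 0 except in animal 1. The turned mean of Hnf4a thus averages unlike probes. Neither probe was tested on its own with the arrays turned. The adult mean of Hnf4a with the mutant in Cy5 was -0.43 ± 0.38 in these 5 animals, against -0.11 ± 0.18 with the mutant in Cy3.

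In the embryos Hnf4a was -0.37, 0.04 and -0.14 in males 1 to 3 and -0.03, -0.17 and 0.18 in females 4 to 6. The values fell on both sides of 0. The mean was -0.08 ± 0.19 (n = 6, adjusted p = 0.612), with an interval of -0.28 to 0.12, or a ratio of 0.825 to 1.08.

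Foxa3, the forkhead activator that was measured, had means near 0 at both ages. Its adult values were 0.29, 0.04, -0.13, 0.29, -0.35 and -0.60 in animals 1 to 6, and its fetal values -0.46, -0.04, 0.49, -0.07, -0.42 and 0.46 in embryos 1 to 6. In adults 3 of 6 animals lay below 0, and in embryos 4 of 6. The means were -0.08 ± 0.36 (limma adjusted p = 0.880) and -0.01 ± 0.41 (adjusted p = 0.983), with intervals of -0.41 to 0.26 and -0.35 to 0.33 (n = 6 each). Turned, the adult mean was -0.06 ± 0.30 (adjusted p = 0.750).

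Nr5a2, whose motif stands in the promoter printed above, lay above 0 in 5 of 6 embryos. In adults it differed between the dye orientations when the Cy3 arrays were read as deposited. The fetal values were -0.05, 0.78 and 0.15 in males 1 to 3 and 0.36, 0.57 and 0.72 in females 4 to 6. Embryo 1 lay just below 0 and the other 5 above. The mean was 0.42 ± 0.33 (n = 6), a ratio of 1.34 with an interval of 1.10 to 1.63 (limma adjusted p = 0.128), higher than 96.5% of features or equal to them. In adults with the mutant in Cy5, Nr5a2 read 0.33, 0.54, -0.04, -0.11, 0.64 and 0.63 in animals 1 to 6. With the mutant in Cy3 it read 0.41, -0.23, -1.69, -1.55 and -1.04 in animals 1, 2, 3, 4 and 6. In animals 3, 4 and 6 the 2 arrays lay far apart, and among the 5 animals measured in both dyes only animal 1 was above 0 in both. The adult mean was -0.12 ± 0.63 (n = 6, limma adjusted p = 0.875). Turned, it was 0.56 ± 0.34 and passed (adjusted p = 0.0412), as did 10.3% of all features.

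**Figure D1:**
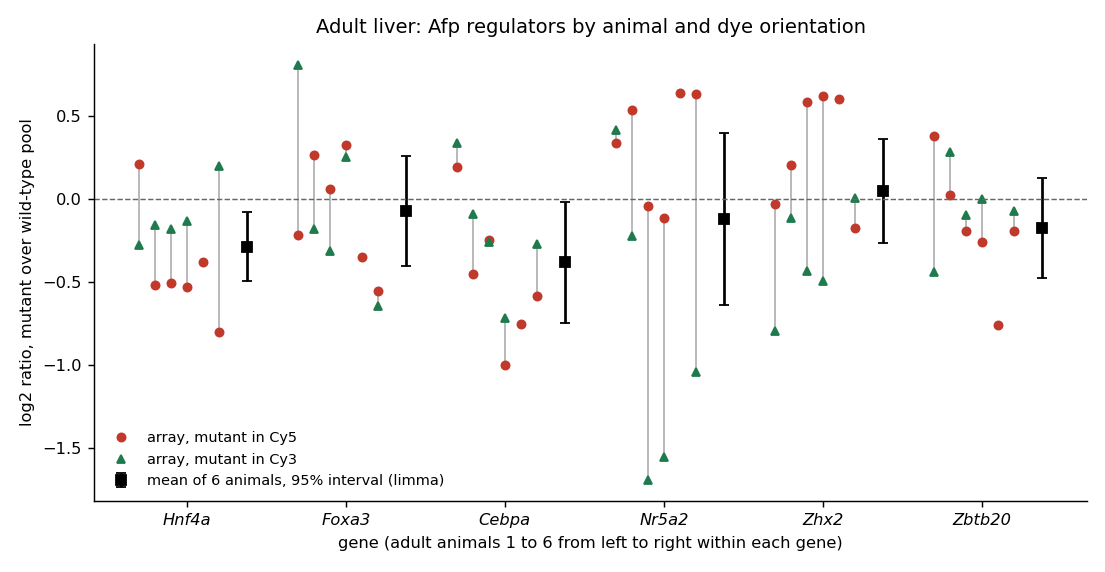
Log2 ratio of mutant over wild-type pool (y axis) for the 6 measured Afp regulators in adult liver. Circles are arrays with the mutant in Cy5 and triangles with the mutant in Cy3, joined within an animal, and squares with bars are the mean of 6 animals with its 95% limma interval. Cy3 arrays are drawn as deposited, where the joined points lie close together for Cebpa (median gap 0.29) and far apart for Nr5a2 (median gap 1.44); turned, the gaps are 0.55 and 0.75.

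Zhx2, the homeobox repressor, differed between the dye orientations in adults when the Cy3 arrays were read as deposited. With the mutant in Cy5 the adults read -0.03, 0.20, 0.58, 0.62, 0.60 and -0.17 in animals 1 to 6, and with the mutant in Cy3 -0.80, -0.12, -0.43, -0.49 and 0.00 in animals 1, 2, 3, 4 and 6. Both arrays had the same sign in 1 of 5 animals as deposited and in 4 of 5 turned. The median gap between them was 0.76 as deposited, against 0.605 over all features, and 0.15 turned, against 0.413. The mean was 0.05 ± 0.33 (n = 6, limma adjusted p = 0.917), with an interval of -0.26 to 0.36, and 0.35 ± 0.27 turned (adjusted p = 0.106). The embryos read 0.12, -0.07, 0.00, 0.07, 0.70 and 0.25 in the order 1 to 6. Embryo 5 lay highest, and embryo 2 was the only one below 0. The fetal mean was 0.18 ± 0.28 (n = 6, adjusted p = 0.381), a ratio of 1.13 with an interval of 0.952 to 1.34.

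Zbtb20, the zinc finger repressor, was read by 2 probes. The adult means over both probes were -0.03, 0.15, -0.15, -0.13, -0.76 and -0.13 in animals 1 to 6. Adult 5, which has 1 array only, lay farthest from 0. The adult mean was -0.17 ± 0.31 (n = 6, limma adjusted p = 0.711), -0.06 without adult 5 and -0.12 ± 0.37 turned (adjusted p = 0.585), with probe 1050 at -0.24 ± 0.31 and probe 3039 at -0.10 ± 0.41. In the embryos both probes together gave -0.16, 0.20, -0.02, -1.67, -0.54 and 0.19 in the order 1 to 6. The value of embryo 4 came from 1 spot, with probe 3039 at -3.43 and probe 1050 at 0.10. The fetal mean was -0.33 ± 0.71 (n = 6, adjusted p = 0.462) and stood at -0.04 with that spot left out (adjusted p = 0.865).

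**Figure D2:**
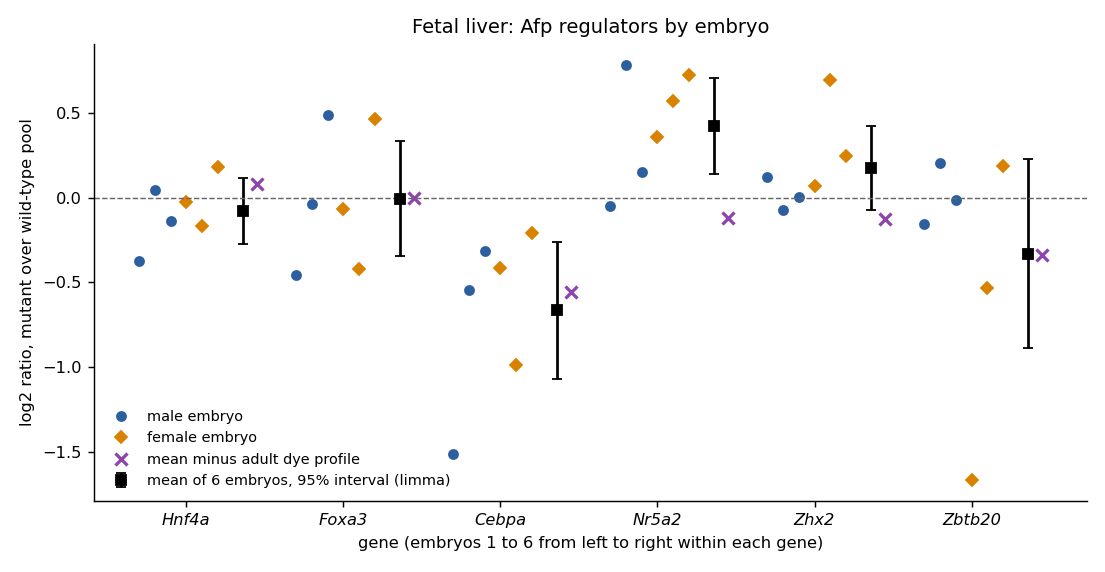
Log2 ratio of mutant over wild-type pool (y axis) for the 6 measured Afp regulators in fetal liver. Circles are male and diamonds female embryos in the order 1 to 6, squares with bars are the mean of 6 embryos with its 95% limma interval, and crosses are the mean after subtraction of the adult dye profile. The 6 points of Cebpa lie between -1.52 and -0.21, and the cross of Nr5a2 lies at -0.12.

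The fetal arrays always carried the mutant in Cy5, so a gene's dye preference and its response to the mutation add up in each fetal ratio. The dye preference could be read from the 5 adults measured in both dyes, as the difference between the orientations divided by 2. This holds only if the Cy3 arrays are mutant over pool as deposited; otherwise the same quantity is the turned adult ratio of these animals, and what follows is no correction for dye. Over all features its median size was 0.226. Nr5a2 had a dye profile of 0.54 ± 0.37 (SD, n = 5), larger than its fetal mean of 0.42, and stood at -0.12 in the embryos with the profile subtracted (limma adjusted p = 0.481). Zhx2 had 0.30 ± 0.27 and stood at -0.13 (adjusted p = 0.397), and Hnf4a had -0.16 ± 0.26 and stood at 0.08 (adjusted p = 0.512). For these 3 genes the sign of the fetal mean changed with the subtraction. The 2 probes of Hnf4a had profiles of opposite sign, 0.12 for probe 334 and -0.44 for probe 19031. Their fetal means were -0.055 and -0.107, so the change of sign in Hnf4a came with probe 19031 and not with probe 334.

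The fetal value of Cebpa changed less. Its dye profile was -0.11 ± 0.08 (n = 5), and the subtraction left -0.56. That value passed (limma adjusted p = 0.0463), but so did 28.5% of all features in this setting, in which the error of the subtracted profile is not counted. Foxa3 and Zbtb20 had profiles of -0.01 ± 0.30 and 0.01 ± 0.23 and stood at -0.002 and -0.34. The profile of Zbtb20 averages 2 probes of opposite sign, 1050 at -0.25 and 3039 at 0.26. Its value of -0.34 still includes the single spot of embryo 4 at -3.43. Over the 6 regulators, both arrays of an adult had the same sign in 17 of 30 pairs, or 56.7%, against 38.6% of all pairs of feature and animal. Turned, it was 13 of 30, or 43.3%, against 61.3%.

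**Figure D3:**
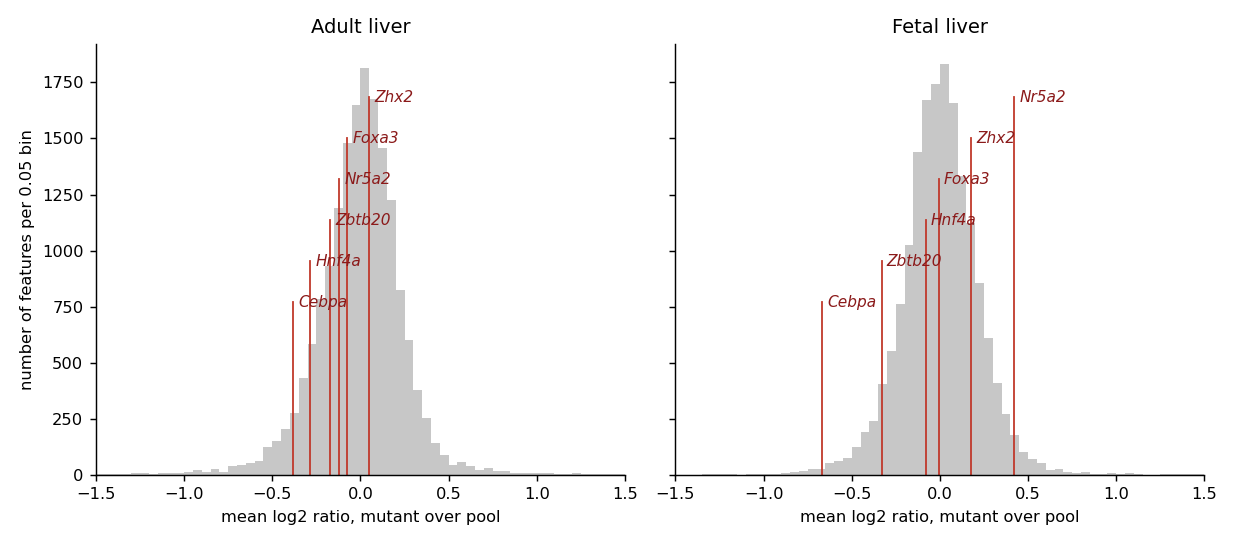
Number of features (y axis) by mean log2 ratio of mutant over pool (x axis, bins of 0.05, shown from -1.5 to 1.5) in adult and fetal liver. Vertical lines mark the means of the 6 regulators, and their height has no meaning. In fetal liver Cebpa at -0.67 lies outside the range of -0.35 to 0.37 that holds 90% of features, as does Nr5a2 at 0.42, while in adult liver, with Cy3 arrays as deposited, the 6 means lie between -0.38 and 0.05.

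The Cy5 measurements of the adults were set against the embryos, whose arrays share that layout, to ask whether the ratio of any regulator differed between the ages. None passed, against 0.141% of 16314 features, and 0 of 6 had an unadjusted p under 0.05, against 20.2%. Adult and fetal animals overlapped for each of the 6. The nearest to the threshold was Hnf4a, at -0.42 ± 0.34 in adults and -0.08 ± 0.19 in embryos, a difference of -0.34 with an interval of -0.70 to 0.02 (limma adjusted p = 0.281, n = 6 each). Cebpa was low in both, at -0.47 ± 0.42 and -0.67 ± 0.50, with a difference of 0.20 and an interval of -0.35 to 0.74 (adjusted p = 0.698). Nr5a2 read 0.33 ± 0.34 and 0.42 ± 0.33, with a difference of -0.09 (interval -0.51 to 0.33, adjusted p = 0.821), and Zhx2 0.30 ± 0.35 and 0.18 ± 0.28, with 0.12 (interval -0.28 to 0.53, adjusted p = 0.741). For Foxa3 and Zbtb20 the differences were -0.07 (interval -0.54 to 0.39) and 0.16 (interval -0.49 to 0.82). Pool and age changed together in this comparison and cannot be told apart.

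Female and male embryos overlapped for each of the 6 regulators. None passed, against 0.0116% of 17212 features, and 0 of 6 had an unadjusted p under 0.05, against 3.18%. Cebpa averaged -0.54 ± 0.40 in females and -0.79 ± 0.64 in males (n = 3 each), a difference of 0.25 with an interval of -0.60 to 1.10 (limma adjusted p = 0.998). Zhx2 read 0.34 ± 0.32 and 0.02 ± 0.10, a difference of 0.32 with an interval of -0.14 to 0.78. Zbtb20 read -0.67 ± 0.93 and 0.01 ± 0.18, a difference of -0.68 that was -0.10 without the spot of embryo 4. The intervals of the other 3 regulators also included 0. The same 4 pool animals were named on all 6 fetal arrays, though the label called the pool male on 2 of them and female on 4.

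Among the embryos, embryo 1 was the lowest of 6 for Hnf4a, Foxa3, Cebpa and Nr5a2, and embryo 5 was the next lowest for the first 3 of these. Embryo 6 was the highest or next highest for all 6 regulators. The activators did not all share their highest embryo, which was 6 for Hnf4a and Cebpa, 3 for Foxa3 and 2 for Nr5a2. Among adults, animal 1 was the highest for Hnf4a, Foxa3 and Cebpa and the lowest for Zhx2 as deposited. Turned, it was the highest for Hnf4a and the lowest for Foxa3 and Nr5a2, and animal 3 was the highest for Cebpa. Embryo 1 also had the lowest median of erythroid markers (-0.21, 7 of 14 listed genes, range over embryos -0.21 to -0.004) and of exocrine pancreas markers (-1.69, 5 of 12 genes, range -1.69 to -0.47). Its stellate marker median was the highest among embryos (0.42, 7 of 8 genes). The next lowest erythroid median was that of embryo 6 (-0.18). Adult 1 had the highest hepatocyte marker median (0.51, 7 of 11 genes with Hnf4a left out), against -0.07 in animals 2 and 5 and -0.75, -0.80 and -0.75 in animals 3, 4 and 6. Turned, that median was 0.27 in adult 1, below 0.41, 0.32, 0.54 and 0.29 in animals 2, 3, 4 and 6 and above -0.07 in animal 5. As deposited adult 1 also had the highest cholangiocyte (0.19) and lymphocyte (0.23) medians and the lowest granulocyte (-0.21) and megakaryocyte (-0.30) medians among adults. In embryos the hepatocyte median, over 6 genes, lay between 0.12 and 0.51, with no dye profile subtracted. Its genes with the smallest fetal p, Serpina1b, Trf and Alb, had fetal means of 0.70, 0.28 and 0.27. Their dye profiles, with Cy3 arrays as deposited, were 0.61, 0.49 and 0.24. The part of dye in this median was not tested. The exocrine pancreas median was below 0 in 6 of 6 embryos. In the fetal comparison 2 of its 5 genes passed below 0, where 0.151% of all features passed in either direction. The part of these markers in the ratios of the regulators was not tested.

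**Figure D4:**
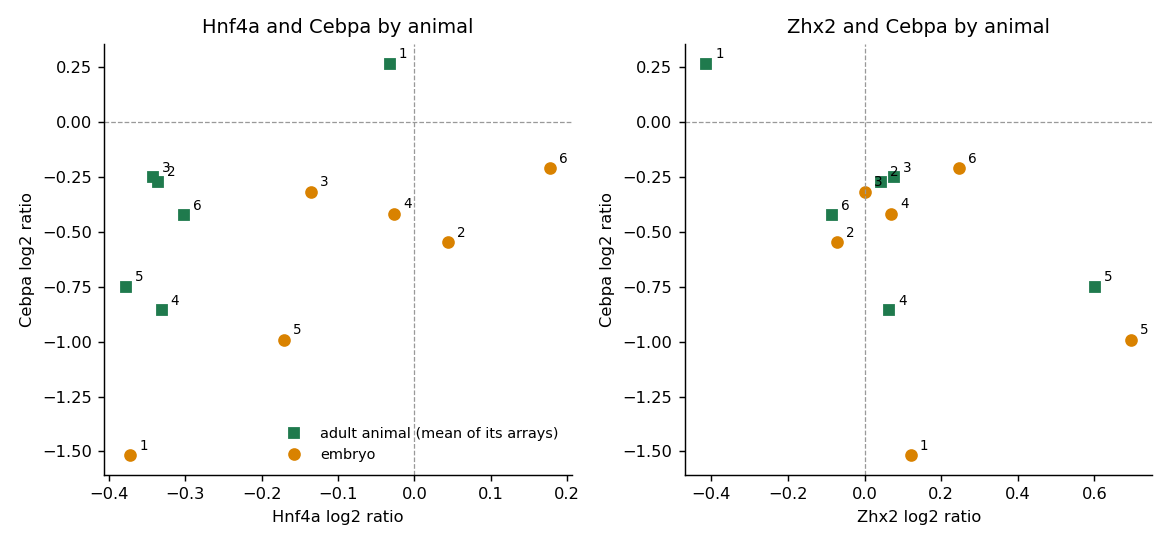
Log2 ratio of Cebpa (y axis) against that of Hnf4a (left) and Zhx2 (right) in 6 adults (squares, mean of an animal's arrays) and 6 embryos (circles), numbered by animal. Embryo 1 is lowest in both Hnf4a and Cebpa, at -0.37 and -1.52, and adult 1, with Cy3 arrays as deposited, is highest among adults in both, at -0.03 and 0.27; turned, its Cebpa value is -0.07 and lies below that of adult 3 at 0.01.

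The named genes whose ratios followed each regulator most closely were looked up over the 12 animals after the mean of each age was subtracted, among 8290 genes with a value in all animals. They were Asl and Ap5s1 for Hnf4a (Pearson r = 0.909 and 0.892), Abcb11 and Tnfaip8l1 for Foxa3 (0.865 and 0.847) and Nfyb and Hpd for Cebpa (0.926 and 0.913). For Nr5a2 they were 2410002F23Rik and Atp13a1 (0.902 and 0.896), for Zhx2 Itga9 and Col4a2 (0.943 and 0.938), and for Zbtb20 Dera and Myl2 (0.946 and 0.917). The ratios of Zbtb20 include the single spot of embryo 4 at -3.43, and its coefficients were not recomputed without that spot. Asl encodes an enzyme of the urea cycle, Abcb11 the bile salt export pump and Hpd an enzyme of tyrosine breakdown. These coefficients are the highest of 8290 over 12 arrays or animal means that share 2 pools, and describe these samples. In the embryos alone they ranged from 0.674 to 0.965, and over all 12 animals with the Cy3 arrays turned from 0.331 (Foxa3 and Tnfaip8l1) to 0.942 (Cebpa and Hpd).

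Other genes known to act on Afp were counted from lists. Of 25 further activators 16 were tested in adults, with 5 above and 11 below 0 and a median of -0.06, and 15 in embryos, with 10 above and 5 below and a median of 0.10. The medians over all features were 0.01 in adults and 0.00 in embryos, and 0 members passed at either age. Turned, 7 were above and 9 below 0 in adults (median -0.04), and 1 passed above 0, where 10.3% of all features passed in either direction. In adults the smallest p values belonged to Cebpd at 0.60 ± 0.46 (n = 4), the coactivator Ep300 at -0.56 ± 0.60 and the retinoic acid receptor Rarb at -0.33 ± 0.37 (limma adjusted p = 0.639, 0.639 and 0.644). In embryos they belonged to Rarb at 0.40 ± 0.23, Tcf7l2, a partner of beta-catenin, at 0.33 ± 0.37, and Nfic, a nuclear factor 1 protein, at 0.22 ± 0.23 (adjusted p = 0.0949, 0.223 and 0.231). Rarb and Tcf7l2 had dye profiles of 0.56 and 0.61, and stood at -0.17 and -0.28 in the embryos with these subtracted. The adult mean of Rarb was 0.14 with the mutant in Cy5 and -0.91 with the mutant in Cy3, where it passed, as did 4.19% of all features. Turned, Cebpd stood at 0.34, Ep300 at 0.08 and Rarb at 0.43.

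Of 28 further repressors and corepressors 21 were tested in adults (11 above 0, 10 below, median 0.02) and 19 in embryos (12 above, 7 below, median 0.03), and 0 passed at either age. Turned, 11 were above 0 in adults and 3 of 21 passed above 0, where 10.3% of all features passed in either direction. Hdac2, a histone deacetylase, was below 0 in 5 of 5 adults with a value, at -0.28 ± 0.14, and above 0 in 6 of 6 embryos, at 0.30 ± 0.22 (limma adjusted p = 0.639 and 0.139). The adult genes with the next smallest p were Fos at -0.52 ± 0.42 and Skil, a partner of Smad proteins, at -0.37 ± 0.50 (adjusted p = 0.639 and 0.652). Turned, Hdac2 stood at -0.05, Fos at 0.27 and Skil at -0.14. In embryos they were Zhx3, a relative of Zhx2, at -0.15 ± 0.07, and Nr2f1, an orphan nuclear receptor, at 0.14 ± 0.09 (adjusted p = 0.229 and 0.257). Nr2f1 had a dye profile of 0.55 and stood at -0.41 in embryos with it subtracted. Of 20 other liver-enriched transcription factors, 16 tested in adults had a median of -0.01 and 14 in embryos a median of 0.01, with 0 passing. Turned, the adult median was 0.01 and 1 of the 16 passed above 0, where 10.3% of all features passed in either direction.

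Of 10 tested targets of Hnf4a, 9 were below 0 in adults (median -0.32) and 10 of 10 above 0 in embryos (median 0.18), where 51.9% and 51% of all features were above 0. None passed over all features. Of the 23 listed genes 5 are also hepatocyte markers, whose median is given above for each animal. The adult examples were Ttr, the thyroxine and retinol carrier, at -0.45 ± 0.44, Fabp1, a fatty acid binding protein, at -0.54 ± 0.60, and Mttp, which loads lipoproteins, at -0.25 ± 0.26 (limma adjusted p = 0.639, 0.639 and 0.644). Turned, 5 of 10 were below 0 in adults with a median of 0.00. Of the 10, 1 passed above 0, where 10.3% of all features passed in either direction. Ttr, Fabp1 and Mttp then stood at 0.10, -0.14 and -0.26. The fetal examples were Serpina1b, an alpha-1-antitrypsin gene, at 0.70 ± 0.24, Nr1i2, the pregnane X receptor, at 0.34 ± 0.19, and Apoa2 at 0.18 ± 0.22 (adjusted p = 0.0504, 0.104 and 0.302). Serpina1b passed where a value was required in every animal. Its dye profile was 0.61, and with it subtracted Serpina1b stood at 0.09 (adjusted p = 0.524). Nr1i2 had a dye profile of 0.02.

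Of 9 tested targets of Foxa proteins and Cebpa, 8 were below 0 in adults, with a median of -0.50, and 7 had an unadjusted p under 0.05 below 0, against 4.35% of all features. None passed after adjustment. Turned, 7 of 9 were below 0 and 1 had an unadjusted p under 0.05 below 0, against 12.6%. Of the 22 listed genes 4 are also hepatocyte markers and 4 are also listed as Hnf4a targets. Of all 8 hepatocyte markers tested in adults, Hnf4a included, 7 were below 0 as deposited, with a median of -0.37. With the mutant in Cy5 alone Tat passed, and with the mutant in Cy3 alone Arg1 did, where 6.55% and 4.19% of all features passed. Tat, the tyrosine aminotransferase, averaged -0.89 ± 0.44, Arg1, the arginase of the urea cycle, -0.64 ± 0.33, and Cyp3a11, a drug oxidising cytochrome, -0.71 ± 0.61 (limma adjusted p = 0.639 each). Turned, they stood at -0.31, -0.03 and -0.29 (adjusted p = 0.347, 0.888 and 0.124). The median was -0.48 with the mutant in Cy5 and -0.50 with the mutant in Cy3, and -0.13 turned. In the embryos, where Cebpa read lowest, 4 of 7 targets were above 0 with a median of 0.06. Igfbp1 averaged 0.96 ± 0.83, Alb, serum albumin, 0.27 ± 0.23 and Cebpe -0.23 ± 0.41 there (adjusted p = 0.129, 0.170 and 0.406). With the dye profile subtracted they stood at 1.25, 0.03 and -0.08.

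The 7 tested targets of Nr5a2 had medians of 0.09 in adults, -0.20 turned, and -0.01 in embryos, and Hnf4a is one of them. The 21 and 18 tested targets of p53, the product of Trp53, had medians of -0.04 (-0.003 turned) and 0.07. Of 8 genes under Zhx2 or Zbtb20 tested in adults, Afp among them, 5 were below 0 (median -0.02), with Fbp1, a gluconeogenic enzyme, at -0.47 ± 0.46, Gpc3, an oncofetal proteoglycan, at -0.81 ± 1.24 and Phldb1 at 0.31 ± 0.46 (limma adjusted p = 0.639, 0.655 and 0.667). Without adult 6 Gpc3 stood at -0.33, and without adult 5 Phldb1 at 0.12. Turned, 7 of the 8 were below 0 (median -0.12), with Fbp1, Gpc3 and Phldb1 at -0.04, -0.67 and 0.46. Of 7 in the embryos 3 were below 0 (median 0.01), and Afp alone passed, under the row naming it helped to choose. Fbp1 and Mlxipl, the carbohydrate response factor, averaged 0.21 ± 0.38 and 0.09 ± 0.17 there (adjusted p = 0.412 and 0.552).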

How the data were processed

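Mutant and pooled wild-type liver RNA received Cy3 and Cy5 by indirect labelling and shared each cDNA array, per the labels' protocols. The authors deposited 1 table of log2 ratios (the log base is inferred from the range of the values), for which no source used here states the image analysis, normalization or filters. The protocol states a pool of 6 control animals, while the fetal labels name 4. Each array carried 20078 to 20697 values, with medians of -0.10 to 0.08. The number of arrays limits the precision.

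Gene names came from the platform's annotation (12771 named probes, and all 11 probes of the regulators and Afp matched RefSeq by Entrez ID), a gene being the mean of its probes. The fetal value of a probe was taken 11 rows below its own, up to probe 20000, since Afp then read -8.40 against 0.14 as deposited, and the fetal mean then correlated with the adult dye profile at a Spearman rho of 0.382 across probes, against 0.016. This naming was chosen after the data were seen, and Afp was part of that choice. Arrays with the mutant in Cy3 were used as deposited, taken as mutant over pool, and the values do not settle that direction. Of their values 0 to 0.0729% end in a zero, against 8.44 to 12.6% on the other arrays. The arrays of an animal correlated at a Spearman rho of -0.447 to -0.217 as deposited. After the mean of each orientation was subtracted, rho was -0.176 to 0.031 and above 0 in 1 of 5 animals. Adult results are therefore given with these arrays turned in sign as well.

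Arrays of an animal were averaged first. limma 3.58.1 (R 4.3.3, lmFit and eBayes) tested features with a value in at least 4 animals per group, or 2 embryos per sex and 4 in all, with Benjamini-Hochberg adjustment over all features, and was tested on simulated data. Whether animals came from separate litters is not stated, so p-values measure the spread between these samples. The text names Afp, the regulators, the 3 smallest p per list and age for 5 lists, and the 2 closest genes per regulator; the other 3 lists are given by counts or medians. Members and lists were chosen with earlier results of these data known. Promoter sequences were those of RefSeq (GRCm38.p6), which held Afp and 8 of the 9 regulators.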

Additional observations from a re-analysis of the deposited data

Results flagged for a closer look

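In 7 of 42 groups checked by Dixon's test, 1 sample lay far from the rest. Chance gives about 1 such group in 20, and several of these groups share values. The adult means average Cy3 arrays as deposited. Adult 6 stood apart for Afp, with an animal mean of 0.34 (nearest other -0.002), a Cy5 array at 0.337 and a Cy3 array at 0.343. Adult 1 stood apart for Hnf4a at -0.032 (nearest -0.302). Adult 5, measured in Cy5 alone, stood apart for Zbtb20 at -0.756 (nearest -0.145), and for its probe 3039 at -0.913 (nearest -0.164). Embryo 4 stood apart for the same probe at -3.431 (nearest -0.33). The ratio of Afp differed between the ages by 8.291 in limma's test of the difference, under the row naming that Afp helped to choose and with fetal spots that may give only a bound.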

How the results depend on the processing

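The values of the 6 regulators were recomputed 359 times, 40 of them with another sign and 2 passing. Of these 359, 180 had 1 animal left out, and 15 of those 180 had another sign. Cy3 arrays turned in sign let 1760 features pass in adults, 1 regulator among them (Nr5a2 at 0.56, limma adjusted p = 0.0412), and put Ep300 at 0.08, Rarb at 0.43, Fos at 0.273 and Ttr at 0.098. Cy5 arrays alone let 1106 pass, with Nr5a2 at 0.331 and Rarb at 0.141. Cy3 arrays alone let 699 pass, with Afp at 0.109, Zhx2 at -0.367, Mttp at 0.006 and Phldb1 at -0.178. In the 5 animals with both dyes Afp was 0.008 and Zhx2 -0.062. Leaving out values beyond 10 in size gave 83 features in embryos, 42 between ages and 0 between sexes, and requiring a value in every animal gave 61, 36 and 0. With each probe on its own 88 passed in embryos, Afp probe 19612 was 0.189 in adults and Zbtb20 probe 1050 was -0.265 between ages. Fetal rows named as deposited put Afp at 0.136, Hnf4a at 0.123, Cebpa at 0.413, Nr5a2 at -0.179, Zhx2 at -0.03, Zbtb20 at 0.096, Rarb at -0.159, Hdac2 at -0.191, Zhx3 at 0.148, Nr2f1 at -0.239, Serpina1b at -0.075, Nr1i2 at -0.132, Apoa2 at -0.618, Cebpe at 0.198 and Fbp1 at -0.238. Between ages that naming gave 1579 features, with Afp at -0.246, Foxa3 at 0.147, Cebpa at -0.885, Nr5a2 at 0.51 and Zbtb20 at -0.263, and between sexes Afp at -0.133, Hnf4a at -0.011 and Cebpa at -0.457. With the dye profile subtracted 4921 features passed in embryos, 1 regulator among them (Cebpa at -0.559), with Hnf4a at 0.078, Nr5a2 at -0.122, Zhx2 at -0.127, Rarb at -0.165, Tcf7l2 at -0.282 and Nr2f1 at -0.41. Hdac2, Nr1i2, Igfbp1, Mlxipl and Nr2f1 passed there too. Without embryos 5 and 6 the counts were 2 in embryos and 4 between ages, with Nr5a2 at 0.02. Adult means over both dyes gave 9 features between ages, with Zhx2 at -0.129. The replicate block over shared numbers gave 8 features and 0 regulators, with Foxa3 at 0.167, Nr5a2 at 0.052 and Zhx2 at -0.019. The array numbers 1, 3 and 5 that both ages share in the titles belong to adult animals 1, 2 and 3, and same-numbered arrays correlated at 0.024, 0.023 and -0.01, so the numbers do not pair them. Without the lowest Zbtb20 spot of embryo 4, a choice made after seeing the data, its age difference was -0.13. Leaving out 1 animal at a time gave 0 to 0 features in adults, 2 to 5 in embryos, 4 to 1224 between ages (1224 without adult 1, 78 without embryo 5) and 0 to 4 between sexes, and 0 regulators each time. Signs turned within these ranges: in adults Nr5a2 from -0.274 to 0.027 (above 0 without adult 3 or 4), Zhx2 from -0.062 to 0.14 and Afp from -0.098 to 0.008 (both turned without adult 5) and Foxa3 from -0.149 to 0.03; in embryos Foxa3 from -0.106 to 0.083; between ages Foxa3 from -0.163 to 0.026 and Zbtb20 from -0.103 (without embryo 4) to 0.282; between sexes Foxa3 from -0.24 to 0.24 and Cebpa from -0.107 (without embryo 1) to 0.492. The cause of these changes was not tested. Signal over background was not analysed here.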
